A study of Mus musculus with 4 samples.

Results

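Most of the 36 genes described here make, move, store or export cholesterol, or control those steps or its uptake. The set also holds 4 genes of fatty acid and phospholipid synthesis, and it holds no uptake receptor. The 36 were listed by symbol, and every array probe whose accession belongs to one of them was read in both colours of all 4 arrays. All 36 were measured, among 23571 genes or accessions tested, through 47 probes, with 11 genes read by 2 probes. Each of the 36 was well above background in both channels on every array. They fall into 17 enzymes of cholesterol synthesis, 5 regulators of the SREBP pathway, 4 genes of sterol transport and storage, 4 genes of fatty acid and phospholipid synthesis, 2 LXR receptors and 4 LXR-driven efflux genes. Mylip is counted with the efflux genes although it limits uptake and is not an exporter.

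Cells make cholesterol from acetyl-CoA through mevalonate and squalene, and the genes of that path are switched on by SREBP transcription factors, which the escort protein Scap carries out of the endoplasmic reticulum when sterols are low and which the Insig proteins hold back when sterols are high. When sterols are in excess, oxysterols activate the LXR receptors, which raise the cholesterol exporters Abca1 and Abcg1, the carrier apolipoprotein E and Mylip, a ubiquitin ligase that removes a lipoprotein receptor from the cell surface. Macrophages take up large amounts of lipoprotein and dead-cell lipid, and so depend on export and on storage as cholesteryl ester.

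The arrays compared macrophages of Cdk5r1 knockout mice with wildtype macrophages, unstimulated (basal) and after lipopolysaccharide (LPS), a bacterial cell wall component, at 100 ng/ml for 6 h. The protein of Cdk5r1, p35, activates the kinase Cdk5. Marrow came from male mice 6 weeks of age, the strain was given as B6.129S4-Cdk5r1tm1Lht/J for both genotypes, and the cells were grown for 7 days with 25 ng/ml GM-CSF. Each array held wildtype RNA in the green dye (Cy3) and knockout RNA in the red dye (Cy5), with 2 arrays for the basal state and 2 for LPS. Wildtype was green on all of them, so any dye bias cannot be told apart from genotype in the ratios, while LPS against basal was read within 1 dye, where a constant bias cancels. The arrays were called biological replicates, but the animals behind them were not named, so p-values measure only the spread between these samples. All values are log2 intensities, or differences between them, a difference of 1 being a 2-fold change. SE is that of the moderated fit, n = 2 arrays per condition, and an adjusted p comes from limma with Benjamini-Hochberg adjustment over all 23571 genes, with a threshold of 0.05. Array probes differ in brightness, so levels are compared between samples and not between genes. In cell cultures of mixed composition, fewer cells of a type and less RNA per cell cannot be told apart.

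Cdk5r1 itself read lower in the knockout channel on every array, with basal log2 ratios of -0.37 and -0.59 and LPS log2 ratios of -2.55 and -2.29, and a further probe gave -0.47 and -0.51, then values near -2.03 under LPS. Whether either probe lies in the deleted sequence is not known from the labels. Of 8 macrophage markers, 7 were matched on the array and all 7 were well above background in both genotypes, and the same held for 7 of 7 dendritic cell markers and 7 of 8 neutrophil markers. The labelled macrophages therefore carried the markers of their own type together with those of dendritic cells and neutrophils, both of which can grow from marrow.

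The promoters of these genes are shown first because SREBP acts with the partner factors NF-Y and Sp1, whose DNA words recur in this pathway. RefSeq windows of 300 bases, 250 before and 50 after a start site (assembly GRCm38.p6), were available for 28 of the 36 genes, 39 windows in all. The windows were searched for 5 words on both strands, namely the SRE-like word TCACNCCAC, the E-box CACGTG, the NF-Y word CCAAT, the Sp1 word GGGCGG, and an LXRE-like repeat of AGGTCA half-sites 4 bases apart with up to 2 mismatches. No match of one word overlapped a match of another in these windows. CCAAT stood in 14 of 17 windows of the synthesis enzymes, or 82.4%, and in 37.4% of all 32851 windows of that length. Each of the 14 synthesis enzymes with a window had the word in at least 1 of its windows. GGGCGG also stood in 14 of these 17 windows, beside 35.7% of all windows. TCACNCCAC was found in 1 window of the set, that of Hmgcs1, beside 1.24% of all windows, and the LXRE-like repeat in 1, a Dhcr7 window, beside 3.02%. CACGTG stood in 7 of the 39 windows, or 17.9%, beside 7.15% of all windows; the genes were Hsd17b7, Sc5d, Dhcr7, Insig1, Scap and Abca1. A match is a description of the letters and not of a bound site.

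Below are the 250 bases before the start site of 7 genes, 5′ to 3′ on the strand of the gene, with CCAAT (or ATTGG, its reverse complement) and TCACNCCAC in capitals. Hmgcs1 is shown for the SRE-like word, which starts 137 bases before the start site. Mvk and Msmo1 are enzymes that were lower after LPS, and Idi1 and Pmvk enzymes that were higher. Mylip and Abca1 are LXR-driven genes of the efflux group that went opposite ways. The windows are chr13:119690101-119690350 for Hmgcs1, chr5:114444019-114444268 for Mvk, chr13:8885356-8885605 for Idi1, chr3:89454291-89454540 for Pmvk and chr13:45389492-45389741 for Mylip, all on the plus strand, and chr8:64733579-64733828 for Msmo1 and chr4:53159896-53160145 for Abca1 on the minus strand. Pmvk has 2 windows, and the one shown is the one that holds CCAAT.
Hmgcs1: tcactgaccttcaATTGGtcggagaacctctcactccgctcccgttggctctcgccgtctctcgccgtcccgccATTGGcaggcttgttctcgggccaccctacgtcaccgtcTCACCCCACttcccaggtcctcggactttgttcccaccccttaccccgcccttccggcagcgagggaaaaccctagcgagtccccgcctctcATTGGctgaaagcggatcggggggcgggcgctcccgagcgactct
Mvk: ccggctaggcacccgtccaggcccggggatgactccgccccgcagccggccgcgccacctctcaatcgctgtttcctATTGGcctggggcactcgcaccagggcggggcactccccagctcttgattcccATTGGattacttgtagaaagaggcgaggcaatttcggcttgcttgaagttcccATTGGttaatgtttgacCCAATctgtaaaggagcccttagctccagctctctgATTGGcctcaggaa
Msmo1: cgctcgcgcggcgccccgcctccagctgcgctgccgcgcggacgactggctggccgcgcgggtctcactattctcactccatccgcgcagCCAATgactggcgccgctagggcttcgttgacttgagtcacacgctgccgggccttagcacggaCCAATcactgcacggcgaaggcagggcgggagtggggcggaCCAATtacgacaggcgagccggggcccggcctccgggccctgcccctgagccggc
Idi1: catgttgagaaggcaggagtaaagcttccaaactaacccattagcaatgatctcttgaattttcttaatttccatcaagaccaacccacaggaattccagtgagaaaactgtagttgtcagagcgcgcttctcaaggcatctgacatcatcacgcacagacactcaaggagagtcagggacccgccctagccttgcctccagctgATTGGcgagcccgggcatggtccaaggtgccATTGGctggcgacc
Pmvk: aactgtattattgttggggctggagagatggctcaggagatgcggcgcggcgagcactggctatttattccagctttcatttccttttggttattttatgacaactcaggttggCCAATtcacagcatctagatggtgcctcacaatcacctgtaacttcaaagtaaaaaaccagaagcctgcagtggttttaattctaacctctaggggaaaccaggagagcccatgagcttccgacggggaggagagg
Mylip: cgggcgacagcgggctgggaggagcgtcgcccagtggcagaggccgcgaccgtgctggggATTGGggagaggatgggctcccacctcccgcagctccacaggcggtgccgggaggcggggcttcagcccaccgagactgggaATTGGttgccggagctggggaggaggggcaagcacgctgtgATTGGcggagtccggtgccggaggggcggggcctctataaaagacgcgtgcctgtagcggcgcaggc
Abca1: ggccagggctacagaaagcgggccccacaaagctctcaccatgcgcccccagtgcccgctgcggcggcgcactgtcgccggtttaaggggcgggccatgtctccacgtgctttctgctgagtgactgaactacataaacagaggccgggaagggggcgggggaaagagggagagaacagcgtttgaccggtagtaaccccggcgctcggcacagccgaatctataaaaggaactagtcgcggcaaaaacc

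Mvk holds 5 CCAAT words before its start site, Hmgcs1, Msmo1 and Mylip 3 each, Idi1 2 and Pmvk 1. Abca1 holds none there. The word was present in enzymes that fell and in enzymes that rose, so its presence did not separate the directions described next.

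LPS lowered much of the synthesis path in both genotypes while raising 2 of its enzymes. The genotypes were the dyes of the same arrays and were normalised together. Here and below, the same direction in both genotypes is therefore not an independent repeat of the LPS response. In wildtype cells, 17 of the 36 genes were lower and 3 were higher after LPS, beside 22.7% and 18.2% of all genes tested (40.9% in either direction). In knockout cells 16 were lower and 3 higher, beside 21.9% and 19.0% of all genes (again 40.9% in either direction). The 3 that rose were Pmvk, Idi1 and Mylip in each genotype. The 16 that fell in knockout cells also fell in wildtype cells, where Sc5d was the 17th. The median change of the 36 was -0.62 in wildtype and -0.50 in knockout cells, against 0.00 and -0.01 for all genes. Every LPS array lay below every basal array for 22 members in each genotype, beside 38.1% of all genes in wildtype and 39.1% in knockout cells. The reverse order held for 5 and 6 members, beside 37.0% and 36.9%. Setting the arrays to a common 75th percentile, in place of equal average intensity distributions, moved the median of all genes by 0.37 in wildtype and 0.35 in knockout cells. The 20 calls in wildtype and 19 in knockout cells kept their direction under it, and Ebp (-0.60, limma adjusted p = 0.054) and Sc5d (-0.39, limma adjusted p = 0.12) no longer passed in wildtype cells.

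**Figure D1:**
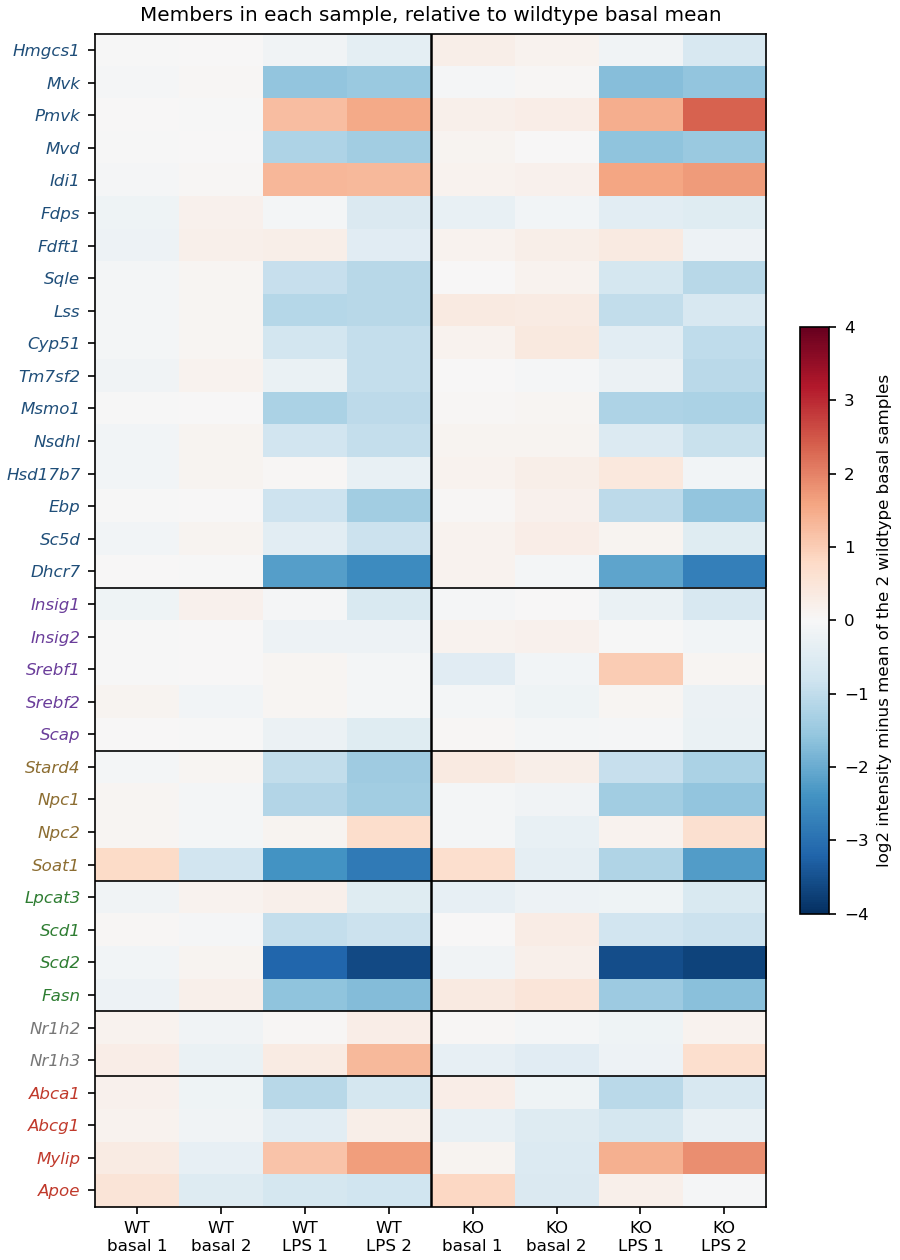
Log2 intensity of each of the 36 genes in the 8 samples (columns, 4 wildtype and 4 knockout), as the difference from the mean of the 2 wildtype basal samples (colour bar). Rows are grouped by role, from synthesis enzymes at the top to efflux genes at the bottom; the blue cells of the LPS columns cover most synthesis enzymes, Npc1, Soat1, Scd2 and Fasn, and the red ones Pmvk, Idi1 and Mylip.

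Among the 17 synthesis enzymes, 10 were lower and 2 higher after LPS in wildtype cells, beside 22.7% and 18.2% of all genes. In knockout cells 9 were lower and 2 higher, beside 21.9% and 19.0%. The median change of the 17 was -0.84 in wildtype and -0.82 in knockout cells. The largest fall was that of Dhcr7, which reduces 7-dehydrocholesterol to cholesterol in the last step of the path. In wildtype cells its log2 intensity was 9.35 and 9.33 at baseline and 7.15 and 6.82 after LPS, and its knockout values were 9.49 and 9.25, then 7.24 and 6.62. All 4 LPS values, which came from 2 arrays, lay more than 2 log2 units under the basal values. The change was -2.36 ± 0.14 (SE, n = 2, limma adjusted p = 0.00088), 5.13-fold, in wildtype and -2.44 ± 0.24 (limma adjusted p = 0.0032) in knockout cells. Its size depended on the settings. Over the alternatives run it lay between -3.19 and -2.19 in wildtype and between -3.58 and -2.14 in knockout cells.

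Mevalonate kinase and its successor in the path went opposite ways. Mvk, which adds the first phosphate to mevalonate, read 13.80 and 13.87 in basal wildtype cells and 12.25 and 12.34 after LPS, with 13.80, 13.89, 12.14 and 12.25 in the same order in knockout cells. No LPS value overlapped a basal one, and the change was -1.54 ± 0.10 in wildtype (limma adjusted p = 0.00096) and -1.65 ± 0.11 in knockout cells (limma adjusted p = 0.0014). Pmvk, which adds the second phosphate, read 13.89 and 13.87 in basal wildtype cells and 15.12 and 15.38 after LPS. In knockout cells it read 14.08 and 14.14, then 15.33 and 16.23, so the second LPS array stood well above the first. The rise was 1.38 ± 0.12 (limma adjusted p = 0.002) in wildtype and 1.67 ± 0.31 (limma adjusted p = 0.016) in knockout cells. Each of the pair has a second probe that moved the same way. The second Mvk probe changed by -1.23 in wildtype and -1.28 in knockout cells, and the second Pmvk probe rose by 1.49 and 1.74.

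The next enzymes alternated again. Mvd, which decarboxylates mevalonate diphosphate to the first isoprenoid unit, read 11.54 and 11.57 in basal wildtype cells and 10.32 and 10.17 after LPS, and 11.66, 11.56, 9.95 and 10.08 in knockout cells. No LPS value reached the basal range, and the change was -1.31 ± 0.10 (limma adjusted p = 0.0014) in wildtype and -1.59 ± 0.11 (limma adjusted p = 0.0015) in knockout cells. Idi1, which isomerises that unit, read 13.79 and 13.89 in basal wildtype cells and 15.17 and 15.14 after LPS, with 13.97, 14.01, 15.42 and 15.55 in knockout cells. Its rise was 1.32 ± 0.09 (limma adjusted p = 0.0012) in wildtype and 1.50 ± 0.11 (limma adjusted p = 0.0016) in knockout cells, with no overlap between conditions. Mvk, Pmvk, Mvd and Idi1 catalyse consecutive steps, and they read down, up, down and up.

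Of the other synthesis enzymes, Msmo1, Lss, Ebp, Sqle, Nsdhl and Cyp51 fell in both genotypes, with changes of -0.84 to -1.16 in wildtype and -0.82 to -1.42 in knockout cells. Sqle makes squalene epoxide, Lss closes the ring to lanosterol, and Cyp51, Msmo1, Nsdhl and Ebp trim and rearrange the sterol. Sc5d, which inserts a double bond late in the path, changed by -0.63 in wildtype (limma adjusted p = 0.047) and by -0.38 in knockout cells, where it did not pass (limma adjusted p = 0.23). Hmgcs1, which makes HMG-CoA and whose promoter holds the SRE-like word, changed by -0.27 ± 0.12 in wildtype and -0.58 ± 0.19 in knockout cells (limma adjusted p = 0.14 and 0.072). Fdps, Fdft1, Tm7sf2 and Hsd17b7 passed in neither genotype, with changes between -0.62 and -0.10 in wildtype and between -0.64 and -0.04 in knockout cells. Nsdhl fell on its second probe too (-0.85 and -1.02), while the second probes of Fdft1, Tm7sf2 and Hsd17b7 passed in neither genotype. Split after the values were seen, the 7 enzymes up to squalene gave 2 higher and 2 lower in each genotype. The 10 after squalene gave 8 lower in wildtype, 7 lower in knockout cells and 0 higher. Of these 10, 8 and 7 had an unadjusted limma p under 0.05. Over all genes, 18.2% were higher and 22.7% lower in wildtype, and 19.0% and 21.9% in knockout cells.

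Some of these calls were lost when 1 array was left out. Over all genes, too, far fewer calls passed with 1 basal array left. In knockout cells the estimates of Pmvk and Nsdhl hardly moved from 1.67 and -0.82. In knockout cells Pmvk, Sqle, Nsdhl and Cyp51 no longer passed without either basal array, at log2 changes of 1.64 and 1.70, -1.06 and -0.92, -0.82 and -0.82, and -1.10 and -0.86. Ebp lost its call without basal replicate 2 in knockout cells (-1.35) and without either basal array in wildtype cells (-1.15 and -1.10). Wildtype Cyp51 lost it without basal replicate 2 (-0.77), and wildtype Sc5d without any array except LPS replicate 1 (-0.72, -0.53 and -0.41).

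**Figure D2:**
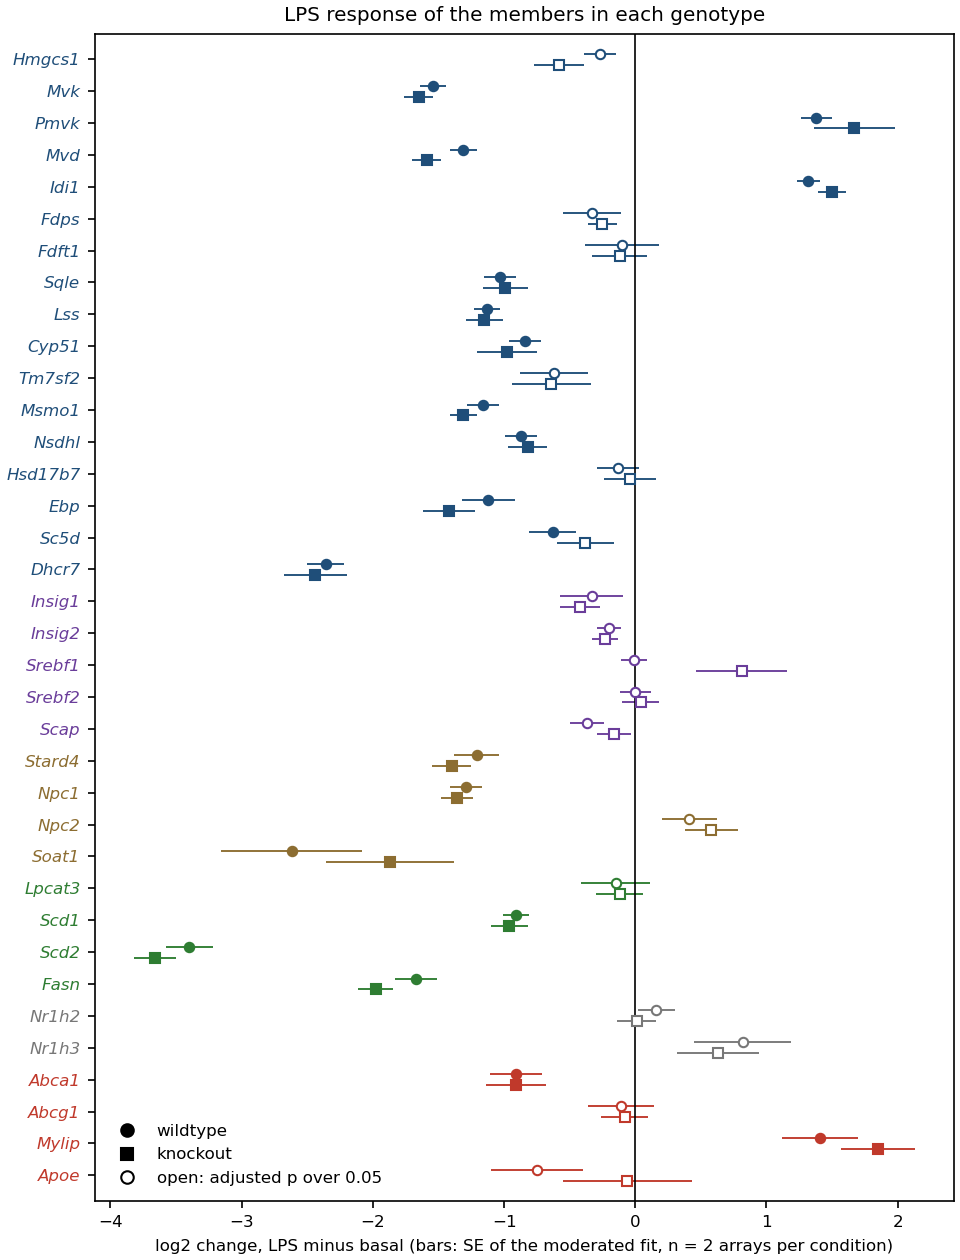
Log2 change after LPS (x axis) for each gene (y axis, coloured by role) in wildtype (circles) and knockout (squares) cells; bars are the SE of the moderated fit with n = 2 arrays per condition, and open symbols did not pass an adjusted p of 0.05. Scd2 lies farthest to the left, at -3.40 and -3.66, and Mylip farthest to the right in both genotypes, at 1.41 and 1.85.

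None of the 5 regulators passed the test in either genotype, beside 40.9% of all genes called in either direction. Among the 5, 1 had an unadjusted limma p under 0.05 in each genotype. Srebf2, the SREBP that drives the cholesterol genes, read 11.18 and 10.98 in basal wildtype cells and 11.17 and 10.99 after LPS, a change of 0.00 ± 0.12 (95% interval -0.32 to 0.32). Its knockout values were 11.00, 10.91, 11.15 and 10.85. Its second, dimmer probe read 9.78 and 10.32, then 10.81 and 10.15 in wildtype, and 9.73, 9.84, 10.51 and 10.00 in knockout cells, where the conditions did not overlap. That probe gave changes of 0.43 ± 0.29 and 0.47 ± 0.20 (limma adjusted p = 0.3 and 0.12), so the probes differ in size and neither passed. Scap, the escort of SREBP, read 13.07 and 13.05, then 12.83 and 12.56 in wildtype (-0.37 ± 0.13, limma adjusted p = 0.076) and 13.11, 12.98, 13.00 and 12.79 in knockout cells (-0.16 ± 0.13). Insig1, a retention protein that is itself an SREBP target, read 9.65 and 9.97, then 9.77 and 9.19 in wildtype, and 9.76, 9.81, 9.55 and 9.18 in knockout cells. Its changes were -0.33 ± 0.24 and -0.42 ± 0.15, with overlap in wildtype only. Insig2, the second retention protein, read 10.10 and 10.11, then 9.91 and 9.90 in wildtype, and 10.24, 10.29, 10.10 and 9.98 in knockout cells, small falls that did not pass (-0.20 ± 0.09 and -0.23 ± 0.10).

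Srebf1, whose products drive fatty acid genes, was the regulator with the widest spread. It read 7.69 and 7.70 in basal wildtype cells and 7.76 and 7.61 after LPS. In knockout cells it read 7.25 and 7.60, then 8.72 and 7.76, so the higher value came from 1 array. The changes were -0.01 ± 0.10 in wildtype and 0.81 ± 0.35 in knockout cells (limma adjusted p = 0.93 and 0.14).

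Sterol transport and storage genes fell except for Npc2, with 3 of 4 lower in each genotype and medians of -1.25 and -1.38. Over all genes, 22.7% were lower in wildtype and 21.9% in knockout cells. Soat1, which esterifies cholesterol for storage in droplets, read 11.46 and 9.90 in basal wildtype cells and 8.28 and 7.85 after LPS. In knockout cells it read 11.35 and 10.32, then 9.47 and 8.45. The basal arrays differed from each other by more than 1 log2 unit, yet every LPS value lay below both. The change was -2.62 ± 0.54 in wildtype (limma adjusted p = 0.018), 6.14-fold, and -1.87 ± 0.49 in knockout cells (limma adjusted p = 0.039). Wildtype Soat1 no longer passed without LPS replicate 2 (-2.41), and knockout Soat1 without LPS replicate 2 (-1.37), basal replicate 1 (-1.36) or basal replicate 2 (-2.39).

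Npc1, which moves cholesterol out of lysosomes together with Npc2, read 11.05 and 10.92 in basal wildtype cells and 9.81 and 9.58 after LPS, with 10.90, 10.83, 9.60 and 9.41 in knockout cells. It fell in both, with changes of -1.29 ± 0.12 (limma adjusted p = 0.0023) and -1.36 ± 0.12 (limma adjusted p = 0.0024). Npc2, its soluble partner, went the other way without passing. It read 15.08 and 14.92, then 15.12 and 15.69 in wildtype, and 14.92, 14.71, 15.15 and 15.64 in knockout cells, changes of 0.41 ± 0.21 and 0.58 ± 0.20 (limma adjusted p = 0.2 and 0.079). Stard4, a soluble sterol carrier and SREBP target, read 11.93 and 12.11, then 11.02 and 10.60 in wildtype, and 12.38, 12.26, 11.09 and 10.76 in knockout cells. Its brighter probe gave -1.21 ± 0.17 and -1.40 ± 0.15 (limma adjusted p = 0.0067 and 0.004). The dimmer Stard4 probe did not fall, with 8.08, 8.24, 8.24 and 8.34 in wildtype cells and changes of 0.13 and 0.05 (limma adjusted p = 0.38 and 0.79), so the fall rests on 1 of 2 probes.

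The fatty acid genes held the largest fall of the set. Scd2, a desaturase that makes monounsaturated fatty acids, read 15.10 and 15.31 in basal wildtype cells and 12.02 and 11.59 after LPS, and 15.06, 15.42, 11.67 and 11.49 in knockout cells. LPS and basal values were more than 3 log2 units apart in each genotype. The change was -3.40 ± 0.18 in wildtype (limma adjusted p = 7e-04), 10.5-fold, and -3.66 ± 0.16 in knockout cells (limma adjusted p = 0.00077), 12.6-fold. It ranked 45th lowest of 23571 genes in wildtype and 37th in knockout cells.

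Fasn, the fatty acid synthase, read 8.04 and 8.43, then 6.64 and 6.49 in wildtype, and 8.59, 8.72, 6.78 and 6.56 in knockout cells. It changed by -1.67 ± 0.16 and -1.98 ± 0.13 (limma adjusted p = 0.0024 and 0.0014). Over the alternatives run, the change of Fasn lay between -2.91 and -1.43 in wildtype and between -3.18 and -1.76 in knockout cells. Scd1, the paralogue of Scd2, read 9.86 and 9.76, then 8.85 and 8.95 in wildtype, and 9.83, 10.10, 9.05 and 8.95 in knockout cells. Its fall was smaller, at -0.91 ± 0.10 and -0.96 ± 0.14 (limma adjusted p = 0.0032 and 0.0075), and it no longer passed in knockout cells without basal replicate 2 (-0.83). Lpcat3, an LXR target that puts polyunsaturated fatty acids into phospholipids, read 11.69 and 11.96, then 12.02 and 11.33 in wildtype, and 11.50, 11.61, 11.66 and 11.20 in knockout cells, with overlapping conditions and changes of -0.15 ± 0.26 and -0.12 ± 0.18.

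Of the 4 LXR-driven efflux genes, 1 rose, 1 fell and 2 did not pass in each genotype. Both directions were also common over all genes, with 18.2% higher and 22.7% lower in wildtype cells, so the count says little about these 4. Mylip read 11.14 and 10.49 in basal wildtype cells and 11.96 and 12.49 after LPS, and 10.93, 10.28, 12.23 and 12.68 in knockout cells. Both LPS values exceeded both basal values in each genotype. The rise was 1.41 ± 0.29 in wildtype (limma adjusted p = 0.018) and 1.85 ± 0.28 in knockout cells (limma adjusted p = 0.0092). Its second probe rose by 0.72 and 1.12. Without LPS replicate 2 or basal replicate 2 the wildtype rise no longer passed (1.15 and 1.08).

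Abca1, the exporter that loads lipid-poor apolipoproteins, read 12.04 and 11.70 in basal wildtype cells and 10.75 and 11.16 after LPS, with 12.13, 11.71, 10.78 and 11.24 in knockout cells. The conditions did not overlap, and the change was -0.91 ± 0.20 in wildtype (limma adjusted p = 0.021) and -0.91 ± 0.23 in knockout cells (limma adjusted p = 0.035). Abca1 no longer passed in wildtype cells without LPS replicate 1 (-0.71) or basal replicate 1 (-0.74), and in knockout cells without LPS replicate 1 (-0.69), basal replicate 1 (-0.70) or basal replicate 2 (-1.13). Abcg1, which exports to mature high-density lipoprotein, read 14.68 and 14.38, then 14.10 and 14.75 in wildtype, and 14.23, 14.01, 13.84 and 14.24 in knockout cells. Its conditions overlapped, and its changes were -0.11 ± 0.25 and -0.08 ± 0.18. Apoe, the secreted carrier of exported cholesterol, read 14.07 and 13.03, then 12.85 and 12.76 in wildtype, and 14.39, 12.97, 13.74 and 13.51 in knockout cells. Basal replicate 1 exceeded basal replicate 2 by more than 1 log2 unit in both genotypes, and the changes of -0.75 ± 0.35 and -0.06 ± 0.49 did not pass.

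Neither LXR receptor passed. Nr1h3, or LXR alpha, read 10.20 and 9.69, then 10.28 and 11.24 in wildtype, and 9.62, 9.48, 9.74 and 10.61 in knockout cells. Its LPS values lay above its basal values in both genotypes, with changes of 0.82 ± 0.37 and 0.63 ± 0.31 (limma adjusted p = 0.14 and 0.18). Nr1h2, or LXR beta, read 13.30 and 13.01, then 13.21 and 13.41 in wildtype, and 13.20, 13.07, 12.99 and 13.30 in knockout cells, overlapping in both (0.16 ± 0.14 and 0.01 ± 0.15).

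To set SREBP-driven genes beside efflux genes, the 17 enzymes, Insig1 and Stard4 were compared with Abca1, Abcg1, Mylip and Apoe. The 19 SREBP-driven genes include no lipoprotein receptor. Of the 4 efflux genes, Mylip limits uptake and is not an exporter. It alone among the 4 had a change above 0 after LPS, at 1.41 in wildtype and 1.85 in knockout cells. The efflux medians below include it. The median change of the 19 SREBP-driven genes after LPS was -0.84 in wildtype and -0.82 in knockout cells, and that of the 4 efflux genes -0.43 and -0.07. The difference of the medians was -0.41 in wildtype and -0.75 in knockout cells. Taken over single pairs of an LPS and a basal array, it ran from -1.11 to 0.24 in wildtype and from -1.38 to -0.04 in knockout cells. The SREBP-driven median alone was below 0 in every pair, between -1.06 and -0.57, whereas the efflux median ran from -0.90 to 0.39. In wildtype cells the difference between the classes was therefore not of 1 sign. Leaving out single arrays moved it between -0.82 (without basal replicate 1) and -0.09 (without basal replicate 2) in wildtype, and between -1.16 and -0.34, for the same arrays, in knockout cells.

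**Figure D3:**
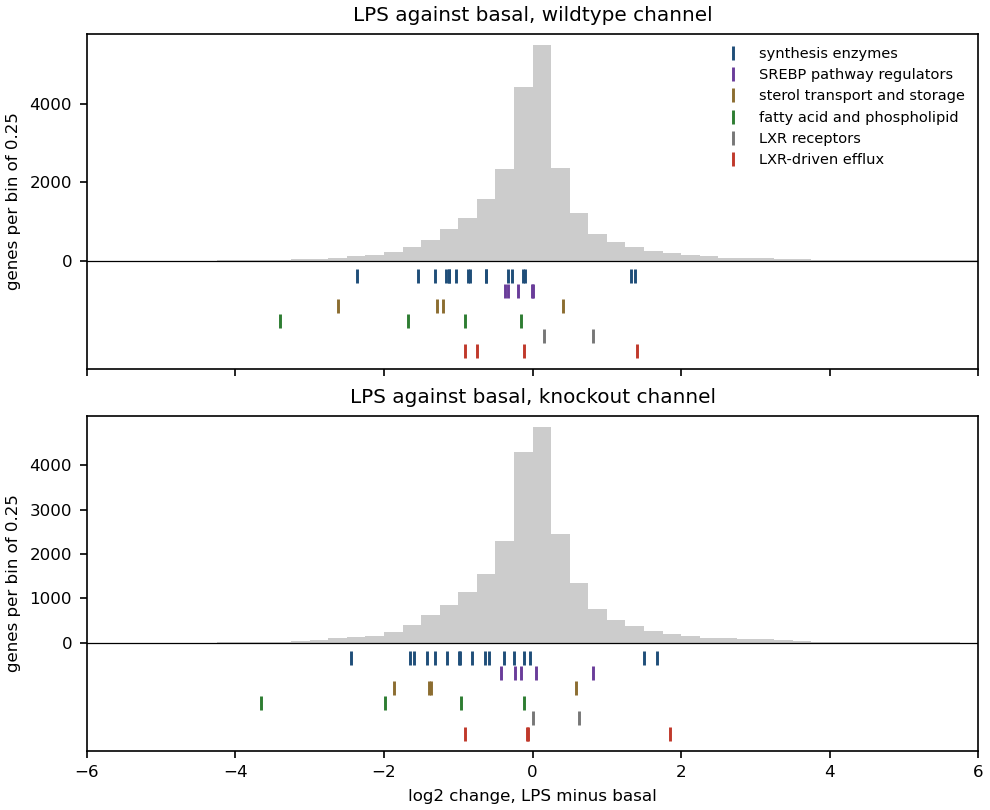
Number of genes per bin of 0.25 of log2 change after LPS (grey bars, x axis from -6 to 6) in wildtype (top) and knockout (bottom) cells, with each of the 36 genes as a tick below, 1 row per role. Synthesis enzymes spread from -2.36 to 1.38 in wildtype cells and efflux genes from -0.91 to 1.41, while the median of all genes lies at 0.00.

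Neighbouring genes of the pathway gave the following. Their counts stand beside 18.2% of all genes higher and 22.7% lower in wildtype cells, and 19.0% and 21.9% in knockout cells. Of 4 oxysterol enzymes, 3 were measured. Ch25h, which makes 25-hydroxycholesterol, an oxysterol that holds SREBP back and activates LXR, rose by 5.47 ± 0.52 in wildtype (limma adjusted p = 0.0023) and 5.21 ± 0.53 in knockout cells (limma adjusted p = 0.0035). Hsd3b7, which acts on oxysterols on the way to bile acids, changed by -1.33 and -1.21, and Cyp27a1, the sterol 27-hydroxylase, by -0.48 in wildtype cells. Of 6 uptake receptors, 1 rose and 3 fell in each genotype. Olr1, a receptor for oxidised lipoprotein, rose by 2.40 and 2.17, Scarb1, a high-density lipoprotein receptor, changed by -1.69 and -2.04, and Cd36 and Lrp1 fell as well. Of 6 genes that cut or degrade SREBP pathway proteins, Rnf139, a ubiquitin ligase with a sterol-sensing domain, rose by 1.59 and 1.68, and Mbtps1, the first protease that cuts SREBP, changed by -0.39 in wildtype cells.

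Of 8 further fatty acid genes, 6 fell in wildtype and 5 in knockout cells, and 0 rose. Over all genes, 22.7% fell in wildtype and 21.9% in knockout cells. Among the 8, 6 and 5 had an unadjusted limma p under 0.05. Elovl6, an elongase, changed by -2.26 and -2.12, and Fads1, a desaturase, by -1.65 and -1.45. Of 9 genes of intracellular sterol handling, 3 rose and 4 fell in each genotype. Nceh1 and Lipa, which release cholesterol from its esters, changed by -2.72 and -1.51 in wildtype and by -2.62 and -1.44 in knockout cells, and Stard3, a late endosomal sterol transporter, rose by 1.42 and 1.29. Of 9 measured LXR partners and other targets, 2 rose and 4 fell in wildtype, and 2 rose and 3 fell in knockout cells. Mertk, a receptor for dying cells, rose by 1.33 and 1.58, and Lpl, the lipoprotein lipase, changed by -0.79 and -1.25.

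Markers of cell types moved with LPS as well. The summed linear intensity of 7 macrophage markers was 191472 to 194379 in basal and 115659 to 127297 in LPS wildtype samples. That of 7 dendritic cell markers was 110208 to 125681 and 209839 to 228824, and that of 7 neutrophil markers 102292 to 163878 and 276539 to 305206. In knockout samples macrophage markers went from 189694 to 232803 down to 94176 to 124460, dendritic cell markers from 101253 to 115361 up to 223681 to 242614, and neutrophil markers from 46901 to 76433 up to 95191 to 98620. The sums hide members that went the other way. Of the 7 macrophage markers, 2 were higher and 3 lower in each genotype, with changes from -1.89 to 2.27 (median -0.22) in wildtype and from -2.26 to 2.17 (median -0.14) in knockout cells. Of the 7 dendritic cell markers, 3 were higher and 2 lower in wildtype, from -2.25 to 5.39, and 4 higher and 2 lower in knockout cells, from -2.32 to 5.43. Of the 7 neutrophil markers, 6 were higher in wildtype and 4 in knockout cells, with medians of 1.22 and 1.28. Over all genes, 18.2% were higher and 22.7% lower in wildtype, and 19.0% and 21.9% in knockout cells. The part of these markers in the falls and rises above was not tested.

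Few members passed the test of knockout against wildtype. Under basal conditions 1 member was higher and 1 lower in knockout cells, beside 3.37% and 1.49% of all genes (4.87% together); 11 of the 36 had an unadjusted limma p under 0.05. The higher one was Fasn, with log2 ratios of knockout over wildtype of 0.55 and 0.29 (0.42 ± 0.08, limma adjusted p = 0.043). The lower one was Abcg1, with -0.46 and -0.38 (-0.42 ± 0.08, limma adjusted p = 0.041). Fasn no longer passed without any one of the 4 arrays (0.29 without basal replicate 1 and 0.55 without basal replicate 2), nor did Abcg1 (-0.38 and -0.46). The median ratio of the 17 synthesis enzymes was 0.11 against 0.00 for all genes, and 0 of them passed, with 4 unadjusted limma p under 0.05.

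After LPS 4 members were higher and 2 lower in knockout cells, beside 7.17% and 5.23% of all genes (12.4% together), and 17 had an unadjusted limma p under 0.05. Apoe had ratios of 0.89 and 0.75 on the LPS arrays and 0.32 and -0.06 on the basal arrays, a difference under LPS of 0.82 ± 0.10 (limma adjusted p = 0.0049). Soat1 had 1.19 and 0.60 under LPS, where its arrays differed most among the called genes, and -0.12 and 0.42 at baseline (0.89 ± 0.17 under LPS, limma adjusted p = 0.021). Sc5d had 0.51 and 0.37 (0.44 ± 0.07, limma adjusted p = 0.013) and Idi1 0.25 and 0.41 (0.33 ± 0.07, limma adjusted p = 0.036). Nr1h3 had -0.54 and -0.63 under LPS (-0.58 ± 0.10, limma adjusted p = 0.014), after -0.58 and -0.21 at baseline, and its second probe gave -0.69 under LPS (limma adjusted p = 0.0084). Abcg1 had -0.27 and -0.51 (-0.39 ± 0.08, limma adjusted p = 0.031), so it was lower on all 4 arrays. Pmvk missed the threshold with 0.21 and 0.85 (0.53 ± 0.14, limma adjusted p = 0.059).

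These genotype calls were fragile. Without LPS replicate 1 the 6 genes gave 0.75 for Apoe, 0.60 for Soat1, 0.37 for Sc5d, 0.41 for Idi1, -0.63 for Nr1h3 and -0.51 for Abcg1, and without LPS replicate 2 0.89, 1.19, 0.51, 0.25, -0.54 and -0.27. Each of these values is the ratio of the single LPS array that was left. Both LPS arrays already had the same sign for each gene, so the kept direction adds no support. Over all genes far fewer calls passed with 1 LPS array left, so a call lost there says little about a single gene. With each array centred on its median in place of loess, 16 members were higher and 0 lower at baseline, and 12 higher and 1 lower under LPS. That centring moved the split over all genes from 795 higher of 1147 called to 3812 of 4459 at baseline, and from 1689 of 2921 to 4633 of 5492 under LPS, and under it Abcg1 stood at -0.07 and -0.02. With the processed signals of the scanner software, 0 passed at baseline and 2 under LPS, which were Apoe and Sc5d.

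**Figure D4:**
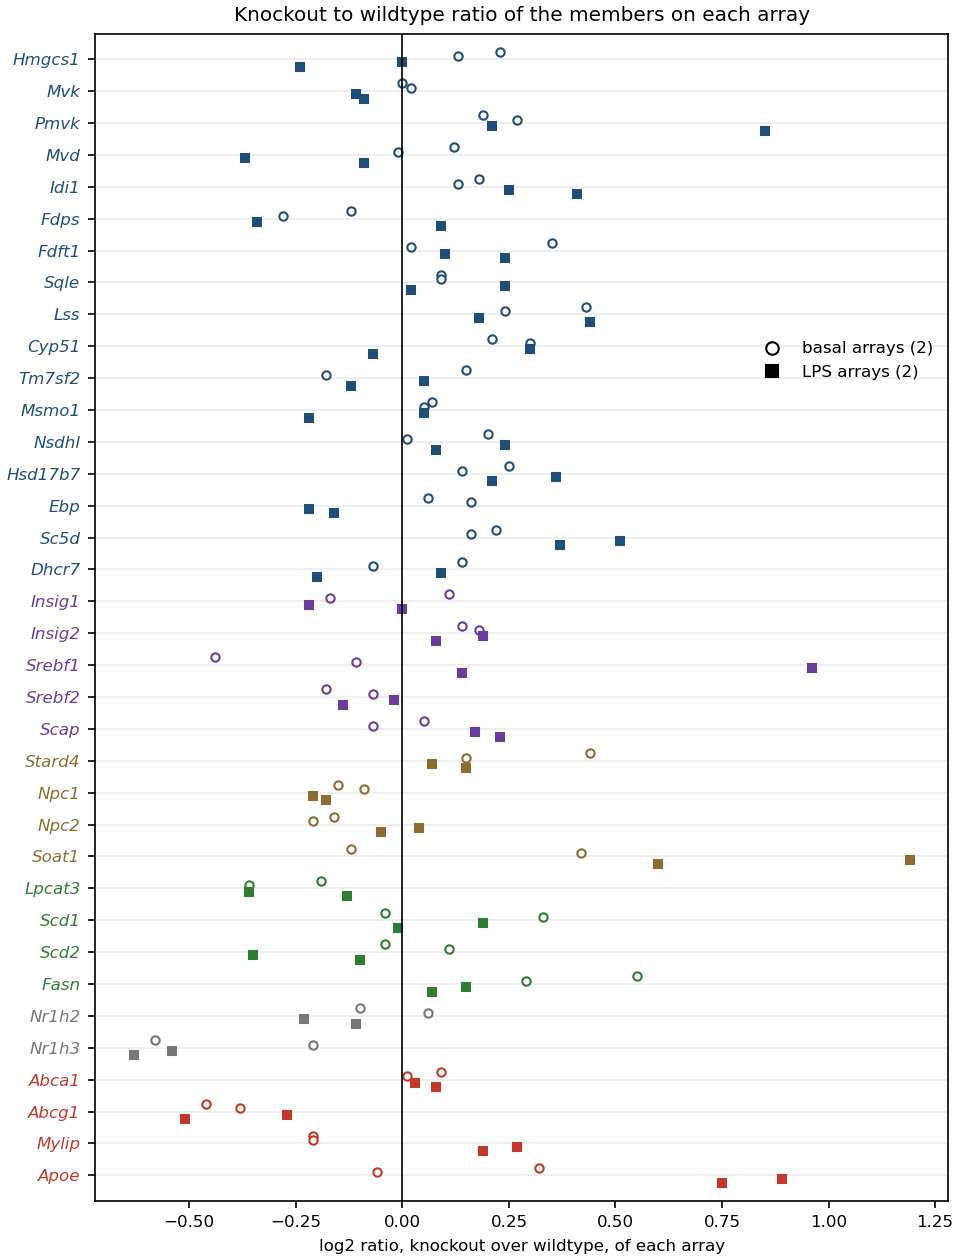
Log2 ratio of knockout over wildtype (x axis) for each gene (y axis, coloured by role) on the 2 basal arrays (open circles) and the 2 LPS arrays (filled squares). Most points lie within 0.5 of 0; Apoe and Soat1 stand to the right on the LPS arrays, at 0.75 to 0.89 and 0.60 to 1.19, and Abcg1 and Nr1h3 stand to the left on all 4.

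Across both conditions 12 members had a ratio above 0 on all 4 arrays, beside 20.3% of all genes, and 5 had a ratio below 0, beside 18.7%. The 12 were Pmvk, Idi1, Fdft1, Sqle, Lss, Nsdhl, Hsd17b7, Sc5d, Insig2, Stard4, Fasn and Abca1, and the 5 were Srebf2, Npc1, Lpcat3, Nr1h3 and Abcg1. These counts use the brighter probe of a gene. The other probe did not keep the sign for Fdft1 (7.50 in knockout and 7.71 in wildtype cells on basal replicate 1), Insig2 (9.62 and 9.68 on the same array) or Nsdhl, which was lower in knockout cells on basal replicate 1 (7.97 and 8.02) and on both LPS arrays. It kept the sign on all 4 arrays for Pmvk, Hsd17b7, Stard4, Srebf2 and Nr1h3. Within the efflux group, Abca1 stayed between 0.01 and 0.09, a level at which the 95% interval under LPS ran from -0.11 to 0.22, while its partner exporter Abcg1 was between -0.51 and -0.27. The difference of medians between SREBP-driven and efflux genes was 0.19 at baseline (0.24 and 0.23 on the single arrays) and -0.03 under LPS (-0.06 and -0.12).

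No member passed the test of whether the LPS response differed between genotypes, in which 0.267% of all genes were higher and 0.115% lower, 0.382% in all (limma, adjusted p under 0.05); 7 of the 36 had an unadjusted p under 0.05. The widest differences were those of Srebf1 (0.83 ± 0.26, limma adjusted p = 0.33), Soat1 (0.74 ± 0.24, limma adjusted p = 0.34) and Apoe (0.69 ± 0.15, limma adjusted p = 0.15). For Dhcr7 the difference was -0.09 with a 95% interval of -0.41 to 0.24, and for Scd2 -0.26 with -0.56 to 0.04. Without basal replicate 1, 1 member passed as higher.

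Neutrophil markers differed between the genotypes beside these results. Of 7 measured, 5 were lower in knockout cells in each condition, beside 1.49% of all genes at baseline and 5.23% under LPS. The 5 were Camp, Ltf, Ngp, S100a8 and S100a9, with changes of -0.98 to -1.88, and Mpo and Elane did not pass. The summed intensity of the 7 was 102292 to 163878 in basal wildtype and 46901 to 76433 in basal knockout samples. Under LPS it was 276539 to 305206 against 95191 to 98620. Of 4 eosinophil markers, Epx and Prg2 were lower in both conditions. Among the 4 measured mast cell and basophil markers, Cpa3 (0.81) and Mcpt8 (0.73) were higher at baseline and Cpa3 (0.57) also under LPS. Fcer1a (-0.13 at baseline and -0.13 under LPS) and Tpsb2 (-0.26 and 0.39) did not pass. Of 7 dendritic cell markers, Dpp4 (1.26) was higher and Itgax (-0.59) lower under LPS. Col1a1 (-0.73), 1 of 4 measured stromal markers, was lower under LPS. Col3a1 (-0.05), Thy1 (-0.11) and Dcn (0.20) did not pass there. Of 7 macrophage markers, 1 was lower at baseline (Lyz2, -0.46) and 2 under LPS (Fcgr1, -0.47, and Cd14, -0.51), and 0 were higher. All 7 neutrophil markers were well above background in both genotypes, and their part in the ratios of Apoe, Soat1, Nr1h3 and Abcg1 was not tested. Neighbouring genes of the pathway that passed went both ways. Lrp1 (-0.52) and Lipa (-0.44) were lower at baseline. Lpl (-0.76), Cd36 (-0.46), Scarb1 (-0.46) and Lipa (-0.37) were lower under LPS. Acat2 (0.40) at baseline and Elovl5 (0.48) under LPS were higher.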

How the data were processed

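RNA of GM-CSF-grown marrow macrophages was hybridised to 4 two-colour Agilent arrays, wildtype in Cy3 and Cdk5r1 knockout in Cy5. The deposited scanner files hold median spot intensity and local background intensity per channel, from Feature Extraction (11.5.1.1 per the file headers, while the submitters' processing notes name 9.3.2.1). The table of values that the authors deposited gives knockout over wildtype as log2, which matched the log2 ratio of the processed signals within 0.001 for 100% of single-spot probes after a constant of -0.0020 to 0.0051; it served as an alternative. All arrays came from 1 slide and 1 scan, so no batch term could be fitted.

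Intensities were background-corrected (normexp, offset 50), loess-normalised within arrays and scaled by Aquantile in limma 3.58.1 (R 4.3.3). Control and outlier spots were left out, which removed 63 of 39429 probes. Probes well above background in 1 channel on at least 2 arrays were kept (28637), and the brightest stood for its gene. Accessions of 27508 probes matched a symbol in a RefSeq table of GRCm38.p6, and no gene coordinates are given because the array headers name another build. Between 62.1% and 71.0% of probe spots per channel were well above background, and the number of arrays limits the precision. The 5 comparisons were fitted with lmFit and eBayes, two-sided, after tests on simulated data. The design had assumed mean intensities, and median ones were in the files.

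Values in every array are given for up to 5 synthesis enzymes with the largest absolute change and for all genes of smaller groups; of context lists, up to 3 genes per comparison. Members and lists were chosen with earlier results of these data known. Alternatives were other background, scaling, filter and probe choices, a replicate block, and leaving out each array. Same-numbered arrays did not deviate together (correlations of -0.19, -0.08 and -0.16 for wildtype, knockout and ratio), so the numbers were not taken as pairs.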

Additional observations from a re-analysis of the deposited data

Results flagged for a closer look

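For 5 members the knockout to wildtype ratio lay on one side of 0 on both basal arrays and on the other side on both LPS arrays. The share of all genes with this pattern was not counted, so the number of members says nothing by itself. The difference of the ratios between conditions was tested for each and passed for none (limma, 0 of 36 members). Mylip went from -0.21 and -0.21 to 0.27 and 0.19, a difference of 0.44 (limma adjusted p = 0.16). Its second probe differed by 0.40 but did not change sign on both LPS arrays, with 7.58 in knockout and 7.68 in wildtype cells on LPS replicate 1. Srebf1 went from -0.44 and -0.11 to 0.96 and 0.14, a difference of 0.83 (limma adjusted p = 0.33). Hmgcs1 differed by -0.31 (limma adjusted p = 0.43), with LPS ratios of 0.00, just under 0 before rounding, and -0.24. Ebp differed by -0.30 (limma adjusted p = 0.35) and Mvk by -0.11 (limma adjusted p = 0.75), whose basal ratios were 0.00 and 0.02. The second Mvk probe did not change sign on both LPS arrays, with 9.38 in knockout and 9.36 in wildtype cells on LPS replicate 1.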

How the results depend on the processing

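The LPS calls kept their direction under every alternative run, except that the second Stard4 probe gave 0.13 in wildtype and 0.05 in knockout cells. With 75th percentile scaling 5 members were higher in wildtype cells, and over all genes 11502 of 15766 calls were higher in wildtype and 10668 of 14884 in knockout cells. Genotype counts moved most. Processed signals and the authors' value table gave 0 higher and 0 lower at baseline and 2 and 0 under LPS, the stricter filter on dim probes 0 and 0 at baseline, and median centring 16 and 0 at baseline and 12 and 1 under LPS. SREBP-driven minus efflux medians became 0.24 (processed signals) and 0.30 (median centring) for knockout against wildtype at baseline, -0.31 and -0.34 for the difference of LPS responses, and -0.11 under LPS with the mean of a gene's probes. The cause was not tested.

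Leaving out single arrays gave 2 to 5 members higher after LPS in wildtype and 2 to 5 in knockout cells, and 14 to 18 and 9 to 19 lower, with 9 without basal replicate 2. Between genotypes it gave 0 to 0 higher and 0 to 1 lower at baseline, 0 to 4 higher and 0 to 2 lower under LPS, and 0 to 1 higher for the difference of responses. The difference of medians ran from 0.19 to 0.24 at baseline, -0.12 to -0.03 under LPS and -0.37 to -0.19 for the difference of responses. A condition left with 1 array is assumed to vary like the other. With the replicate block LPS gave 3 higher and 16 lower in wildtype and 3 and 14 in knockout cells; genotype gave 0 and 0 at baseline and 2 and 1 under LPS. The crossed pairing, chosen after seeing the data, gave 5 higher after LPS in knockout cells, 2 higher and 3 lower for genotype at baseline, and 2 higher for the difference of responses. With 2 arrays per condition and no dye swap, small genotype differences are beyond what these arrays resolve.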
